A study of Mus musculus with 6 samples.

Results

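The miR-183 cluster holds the microRNAs miR-183, miR-96 and miR-182, which are cut from 1 primary transcript. Its members were taken by name, as the 3 assays of 517 on the array whose name is exactly miR-183, miR-96 or miR-182. They were selected on the log2 difference between the genotypes, which was high for miR-96 and miR-182 and already known, so that difference is given as a description without a test. Whole aortas of male mice without Apoe, a model of atherosclerosis, were read after 12 weeks on a diet with 21% crude fat that began at 6 to 8 weeks of age. In 3 mice of the genotype LysM-Cre/Dicerflox/flox/Apoe-/- (Dicer_KO aortas), Cre made from the lysozyme M locus met floxed Dicer, the gene of the enzyme that cuts microRNA precursors to their mature length. The other 3 mice were littermates of the genotype LysM-Cre/Dicerwt/wt/Apoe-/- (Dicer_WT aortas), with the same Cre and the same loss of Apoe. The lysozyme M locus is active in macrophages and other myeloid cells, and the loss of Dicer in the cells of the vessel wall was not measured on these arrays. Fewer cells of a type and less RNA per cell cannot be told apart in whole aortas.

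Each RNA was read as a threshold cycle (Ct), the cycle at which the probe signal crosses a threshold, so that 1 cycle less means about 1 unit more on the log2 scale. A Ct below 35 was taken as detected, and the Dicer_KO aortas had 349 to 366 detected assays, against 374 to 378 in the Dicer_WT aortas. The labels give macrophage as the cell type and aorta as the tissue. The smooth muscle microRNAs miR-145 and miR-143 were read early in every aorta, miR-145 between Ct 11.5 and 12.7, and the values were read as those of whole vessels. In each of the 6 assays of the myeloid list, among them miR-223 and miR-511, all Dicer_KO values were below all Dicer_WT values. This was the case for 32.6% of all assays tested. miR-147 of that list was undetected in every Dicer_KO aorta. Over the 377 assays tested, the median log2 fold change of Dicer_KO over Dicer_WT was -0.42 on the authors' scale, -0.61 with U6 alone as reference and 0.16 with U87 and Y1 as reference.

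The cluster is best known from sensory organs. It is abundant in photoreceptors, in the hair cells of the inner ear and in sensory neurons, and changes in the seed of miR-96 cause progressive hearing loss in humans and mice. Outside the sensory organs it is made in epithelia and in activated lymphocytes, where miR-182 restrains the transcription factor Foxo1 in mice. As the members leave the nucleus on separate hairpins after cutting by Drosha, each hairpin is processed by Dicer on its own.

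The mature sequences are shown because the members are close relatives whose targets are set by the seed, bases 2 to 8 from the 5′ end, printed in capitals. All come from RefSeq on the build GRCm38.p6, on the minus strand of chromosome 6.
miR-183: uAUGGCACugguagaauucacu
miR-96: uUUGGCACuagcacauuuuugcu
miR-182: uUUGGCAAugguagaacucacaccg
miR-183*: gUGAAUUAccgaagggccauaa
The passenger strand miR-183*, from the other arm of the miR-183 hairpin, had an assay on the array and is not a member. With positions counted from 1 at the 5′ end, the seeds of miR-183 and miR-96 differ by A2U and those of miR-96 and miR-182 by C8A, so that 6 of the 7 seed bases are shared in either pair. Over their full length miR-183 and miR-182 are closer, with the same base at 18 of 22 positions, than miR-183 and miR-96 with 13 of 22 or miR-96 and miR-182 with 12 of 23. In the RefSeq table the seed of miR-96 is found in 1 further mature microRNA, miR-1271-5p, for which the array held no assay, and the seeds of miR-183 and miR-182 in none.

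The hairpins lie in the order miR-183, miR-96, miR-182 along the transcript, Mir183 at chr6:30169668-30169737, Mir96 at chr6:30169446-30169551 and Mir182 at chr6:30165918-30165992. All 3 lie within the long noncoding RNA gene Mirc35hg at chr6:30158640-30174125. Mir183 and Mir96 are 116 bases apart, whereas 3453 bases separate Mir96 from Mir182. The miR-183 hairpin is printed because both of its arms were measured, each in capitals, with miR-183 as the first and miR-183* as the second.
Mir183: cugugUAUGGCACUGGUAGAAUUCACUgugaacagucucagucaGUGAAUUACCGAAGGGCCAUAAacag

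miR-182, a microRNA with Foxo1 among its targets in mouse T cells, was the member with the clearest separation of the genotypes. Its Ct was 24.0, 24.6 and 24.4 in the Dicer_KO aortas, against 26.3, 25.7 and 25.5 in the Dicer_WT aortas. In the deposited relative quantities, scaled to a geometric mean of 1 in the Dicer_WT aortas, it stood at 3.75, 2.89 and 3.15 in Dicer_KO, against 0.633, 1.18 and 1.34 in Dicer_WT. Every Dicer_KO aorta was above every Dicer_WT aorta, with at least 2.89 in Dicer_KO against at most 1.34 in Dicer_WT. The log2 fold change was 1.70 ± 0.327 (SE, n = 3 each), 3.25-fold, and the spread was smaller in Dicer_KO (SD 0.193 on the log2 scale) than in Dicer_WT (SD 0.578). Dicer_WT replicate 1 was the lowest of the 6 aortas, and without it the log2 fold change was 1.37. It was above 0 under all 18 other settings tried, from 1.37 to 2.21.

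miR-96, the member whose seed is altered in hereditary deafness, was the last of the 3 to cross the threshold and the most variable. Its Ct was 29.985, 33.4 and 31.0 in the Dicer_KO aortas, against 36.003, 31.7 and 34.5 in the Dicer_WT aortas. It was therefore detected in all 3 Dicer_KO and in 2 of 3 Dicer_WT aortas. The deposited relative quantities were 17.7, 2.01 and 10.01 in Dicer_KO, against 0.228, 5.40 and 0.811 in Dicer_WT. The groups overlapped, since Dicer_WT replicate 2 stood above Dicer_KO replicate 2. With the undetected well set to Ct 35 the log2 fold change was 2.49 ± 1.19 (SE, n = 3 each), from SDs of 1.63 in Dicer_KO and 1.86 in Dicer_WT. It was 1.76 with the undetected well left missing, which drops Dicer_WT replicate 1, 3.54 without Dicer_WT replicate 2 and 1.13 at a Ct cutoff of 32.

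miR-183, which gives the cluster its name, was on average close to the same level in both genotypes. Its Ct was 28.9, 30.1 and 30.9 in the Dicer_KO aortas, against 29.5, 29.5 and 29.6 in the Dicer_WT aortas. The relative quantities were 1.61, 0.875 and 0.456 in Dicer_KO, against 0.905, 1.05 and 1.06 in Dicer_WT. The Dicer_KO aortas lay on both sides of the Dicer_WT aortas, with an SD of 0.909 on the log2 scale in Dicer_KO against 0.125 in Dicer_WT. The log2 fold change was -0.21 ± 0.462 (SE, n = 3 each), and its sign was not stable, at 0.25 when Dicer_KO replicate 3 was left out and -0.66 when Dicer_KO replicate 1 was, and above 0 with mean centring (0.15), quantile normalization (0.41) and U87 and Y1 as reference (0.30).

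miR-183*, the passenger strand, had the same highest and lowest aorta as miR-183, with another order between them. Its relative quantities were 1.82, 1.42 and 0.715 in Dicer_KO, against 0.911, 1.23 and 0.889 in Dicer_WT. As for miR-183, Dicer_KO replicate 1 was the highest of the 6 aortas and Dicer_KO replicate 3 the lowest. Dicer_KO replicate 2 was next to the highest for miR-183* and next to the lowest for miR-183. Pearson's r between both arms was 0.79 over the 6 aortas, which share the reference RNAs of their aorta though not the card. The log2 fold change of miR-183* was 0.30 ± 0.386 (SE, n = 3 each), and miR-183 minus miR-183* changed by -0.51, with SDs of 0.284 in Dicer_KO and 0.243 in Dicer_WT and overlapping groups. By Ct, miR-183* was read 2.78 cycles earlier than miR-183 on average. Of 61 hairpins with the named and the star assay detected in all 6 aortas, 13 had the lower mean Ct for the star assay, and assays can differ in efficiency, so this gives no ratio of the arms.

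**Figure D1:**
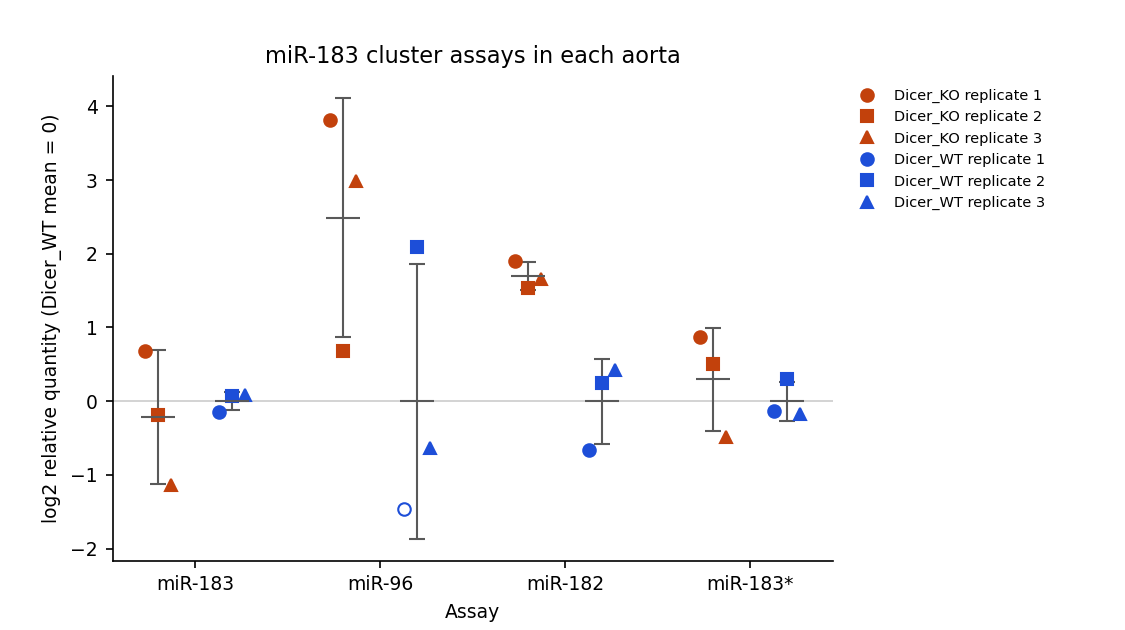
The y axis gives the log2 relative quantity of each assay in each aorta (Dicer_WT mean at 0, wells at or above Ct 35 set to Ct 35), with Dicer_KO left of Dicer_WT; bars are the mean ± SD of 3 aortas, and the open point is the undetected well of miR-96. The groups part for miR-182, with a difference of 1.70, and overlap for miR-183, miR-96 and miR-183*.

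Across all assays tested, limma called 1.86% lower and 0.0% higher in Dicer_KO (adjusted p under 0.05), and 0 of the 3 members were called. Higher in every Dicer_KO than in every Dicer_WT aorta were 2.39% of assays, 1 member among them (miR-182). As the members were picked for this contrast, nothing is read from these counts. By log2 fold change, miR-96 stood at place 4 from the top of 377, miR-182 at place 7 and miR-183 at place 122. The authors' deposited table gives a fold of 3.11 for miR-182, 4.61 for miR-96, 0.976 for miR-183 and 1.30 for miR-183*, each the ratio of the arithmetic means of the deposited quantities. From the same quantities, the ratio of the geometric means was 7.09 for miR-96 and 3.25 for miR-182, so the averaging moved miR-96 by more than 1.5 times and miR-182 little.

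Differences between the members were compared within each aorta. All 3 assays lie on the same card, so the difference of their Ct values in 1 aorta uses no reference RNA and is the same under every choice of reference. Expressed as log2 of miR-182 over miR-183, it was 4.94, 5.44 and 6.50 in the Dicer_KO aortas, against 3.20, 3.89 and 4.05 in the Dicer_WT aortas. Each Dicer_KO aorta thus had more miR-182 for its miR-183 than any Dicer_WT aorta. The means were 5.63 ± 0.7997 in Dicer_KO and 3.71 ± 0.454 in Dicer_WT (SD, n = 3 each), a change of 1.91, or 3.77-fold. The exact permutation p was 0.1, two-sided, which is the lowest value possible with 3 against 3 aortas. After adjustment over the 3 pairs (Benjamini-Hochberg) it was 0.3, so the change did not pass the threshold and could not have. The members were selected on the difference between the genotypes, which enters the change of each of the 3 pairs. The permutation p of a change is therefore no independent test of the members. Leaving out 1 aorta gave changes of 1.47 to 2.26.

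miR-96 and miR-183, whose hairpins are neighbours, differed in Ct by amounts that overlapped between the genotypes. The log2 difference was -1.09, -3.35 and -0.098 in the Dicer_KO aortas, against -5.54, -2.19 and -4.94 in the Dicer_WT aortas. The change was 2.71 (exact permutation p = 0.2, adjusted p = 0.3), and 1.34 at a Ct cutoff of 32. For miR-182 and miR-96 the log2 difference was 6.03, 8.79 and 6.60 in Dicer_KO, against 8.74, 6.08 and 8.99 in Dicer_WT. Its change was -0.79 (exact permutation p = 0.7, adjusted p = 0.7), smaller than the SDs of 1.46 in Dicer_KO and 1.61 in Dicer_WT, and it turned to 0.57 at a Ct cutoff of 32, at which 3 of the 6 wells of miR-96 lie above the cutoff. Single aortas set its size, as it was -1.72 when Dicer_WT replicate 2 was left out, -1.62 for Dicer_KO replicate 2, -0.24 for Dicer_KO replicate 1, -0.27 for Dicer_WT replicate 3, -0.39 for Dicer_WT replicate 1 and -0.52 for Dicer_KO replicate 3.

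Over both genotypes together the order of the Ct values was the same in 6 of 6 aortas, miR-182 first, miR-183 next and miR-96 last. miR-182 minus miR-183 was -4.67 ± 1.20 cycles (SD, n = 6), miR-96 minus miR-183 was 2.87 ± 2.14 and miR-182 minus miR-96 was -7.54 ± 1.44. For each of the 3 pairs the exact sign-flip permutation p was 0.03125, two-sided, the smallest that 6 aortas allow, and the adjusted p was 0.03125. These are differences in Ct between assays of unknown efficiency, and they do not give the ratio of the molecules.

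**Figure D2:**
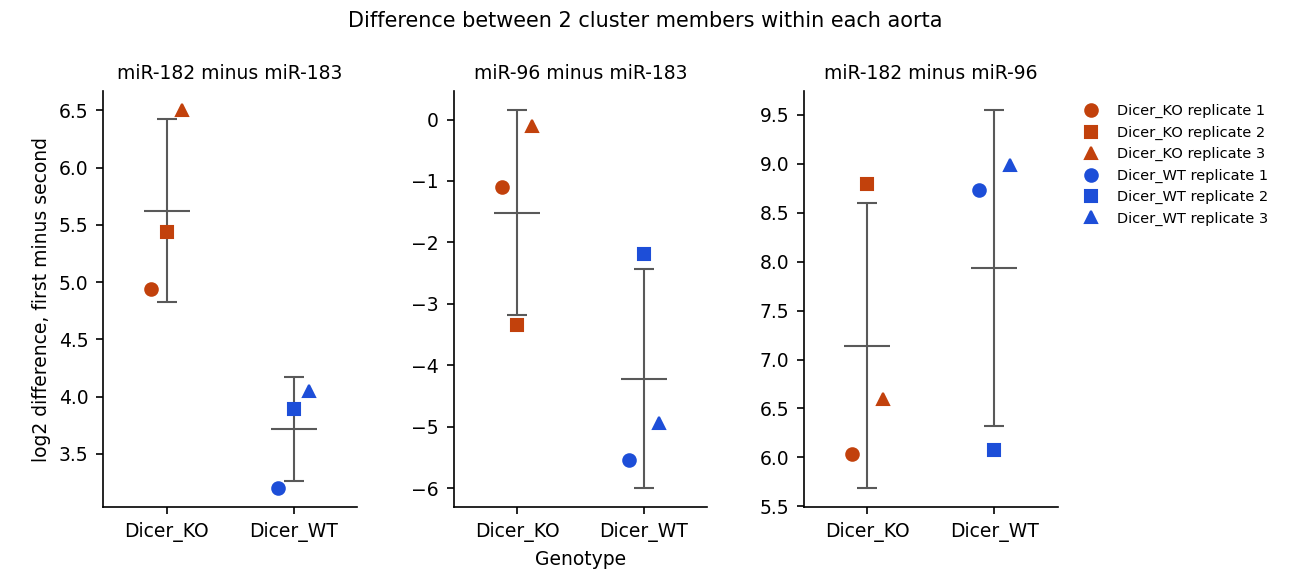
The y axes give the log2 difference between 2 members in each aorta (Ct of the second minus Ct of the first, each panel with its own range), with Dicer_KO left of Dicer_WT; bars are the mean ± SD of 3 aortas. Only in the panel of miR-182 minus miR-183 are the genotypes apart, at means of 5.63 in Dicer_KO and 3.71 in Dicer_WT.

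Other microRNAs that share a transcript were set beside the cluster by the absolute difference between the log2 fold changes of 2 assays. Of 17 other clusters, 38 pairs were tested, with a median of 0.37, and 34 of these pairs had both assays detected in all 6 aortas, with a median of 0.30. Among these 34 the difference was at most 0.999, for miR-322 and miR-542-5p, against 1.91 for miR-182 and miR-183, which were detected in all 6 aortas too. With any 1 aorta left out the highest of the 34 was 0.94 to 1.05, against 1.47 to 2.26 for miR-182 and miR-183. The clusters were a chosen list that does not hold every shared transcript, so the highest value holds for that list only. The miR-467 assays, from an intron of Sfmbt2, were not in it. Of these, miR-467d had a log2 fold change of -2.67 and miR-467b of -0.15, both detected in all 6 aortas. They lie further apart than miR-182 and miR-183. Higher values than that of miR-182 and miR-183 occurred in 4 of the 38 pairs, each with an assay undetected in at least 1 aorta, up to 4.50 for miR-23a and miR-27a. The smooth muscle pair miR-143 and miR-145 differed by 0.34 and in the epithelial cluster miR-200b and miR-200a differed by 0.11, miR-200b and miR-429 by 0.66 and miR-200a and miR-429 by 0.77. The within-aorta difference parted the genotypes in 42.1% of the 38 pairs and in 38.2% of the 34, and in 1 of the 3 pairs of the miR-183 cluster, a share near the background. The SD of the within-aorta difference inside the groups was 0.65 for miR-182 and miR-183. It was 0.11 for miR-322 and miR-542-5p, with a median of 0.23 over the 34 pairs. The larger size for miR-182 and miR-183 thus came with a larger spread. No test was made of the size, since miR-182 was chosen for its value. Some of the microRNAs compared, such as miR-1 and miR-133a, are made from more than 1 locus.

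**Figure D3:**
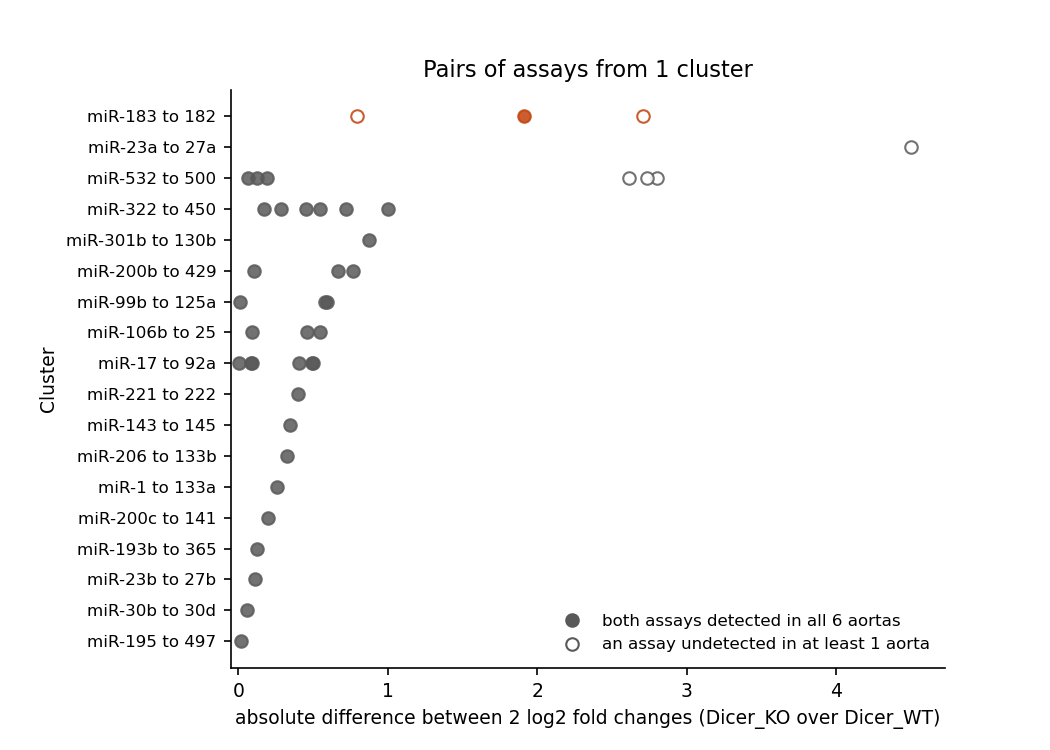
The x axis gives the absolute difference between the log2 fold changes (Dicer_KO over Dicer_WT) of 2 assays from 1 cluster, with a row for each cluster and the miR-183 cluster in orange; open points are pairs with an assay undetected in at least 1 aorta. The filled orange point, miR-182 and miR-183 at 1.91, lies right of all 34 filled grey points of the chosen clusters. The miR-467 assays, not in that list, are not drawn. The SD inside the groups is not drawn, at 0.65 for that pair against a median of 0.23 for the 34.

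Over the 6 aortas of both genotypes, the correlation between members was highest for miR-182 and miR-96. Pearson's r over the 6 aortas on the log2 relative scale was -0.06 for miR-182 and miR-183, 0.03 for miR-96 and miR-183, and 0.78 for miR-182 and miR-96. All assays of a card share the reference RNAs of each aorta, and the difference between the genotypes enters each r. Among assays detected in all 6 aortas, those most like miR-182 were miR-129-3p (r = 0.90), known from neurons, miR-193* (0.90), the lymphocyte microRNA miR-150 (0.80), miR-378* (0.75), from an intron of the metabolic regulator gene Ppargc1b, and miR-878-3p (0.73). Those most like miR-96 were miR-182 itself (0.78), miR-193* (0.75), miR-129-3p (0.68), miR-193 (0.66) and the epithelial miR-205 (0.55). Those most like miR-183 were different ones, miR-34c* (0.96), the neuronal miR-9 (0.91), miR-672 (0.91), miR-674 (0.86) and miR-671-3p (0.86).

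The microRNAs of the cell types that make the cluster elsewhere were read for comparison. Of 7 epithelial assays tested, 2 lay above 0 and 5 below, with a median log2 fold change of -0.18, against -0.42 over all assays. miR-429 was at -0.84 and miR-205 at 0.86. Of the 7, 1 (miR-429) was lower in every Dicer_KO than in every Dicer_WT aorta, against 32.6% of all assays tested. In limma 0 of the 7 passed, against 1.86% of all assays tested called lower and 0.0% higher. Nothing is read from a count of 0 in lists this short, here or in the lists below. Of 9 neuronal assays, 4 were above 0 and 5 below, with a median of -0.02, and 0 passed. miR-129-5p was the highest of them at 1.31 and miR-124, undetected in Dicer_KO replicate 3, the lowest at -1.30. miR-129-3p, at 1.11, was higher in every Dicer_KO than in every Dicer_WT aorta, as were 2.39% of all assays tested. Lower in every Dicer_KO aorta were 2 of the 9, against 32.6% of all assays tested. From the eye, miR-204 was at -0.38 and miR-184 at -1.17, while miR-211 gave no product in any aorta. Of the 2 eye assays tested, 1 (miR-204) was lower in every Dicer_KO aorta. Of 4 lymphoid assays 1 was above 0, miR-150 at 0.53, with a median of -0.46 over the 4 and 0 passing. miR-155, which rises in activated immune cells, was at -0.80. It was the 1 of the 4 that was lower in every Dicer_KO aorta, against 32.6% of all assays tested.

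The levels of the myeloid and erythroid lists are given beside miR-182, with no test of the lists. The mean log2 relative level of the 6 myeloid assays was -2.26 to -1.41 in the Dicer_KO aortas, against -0.51 to 0.31 in the Dicer_WT aortas, and that of the erythroid miR-451 and miR-486 was 0.998 to 1.65 in Dicer_KO, against -0.998 to 0.847 in Dicer_WT. In both lists 0 assays passed in limma, against 1.86% of all assays tested called lower and 0.0% higher. All 6 myeloid assays were lower in every Dicer_KO than in every Dicer_WT aorta, against 32.6% of all assays tested. Of the 2 erythroid assays 1 was higher in every Dicer_KO aorta, against 2.39% of all assays tested, while miR-486 overlapped. As the lists were chosen with earlier results of these data known, nothing is read from these counts. Every defining assay of both lists was detected in every Dicer_WT aorta, while miR-147 of the myeloid list was silent in every Dicer_KO aorta. The epithelial mean overlapped, at -0.37 to 0.43 in Dicer_KO, against -0.79 to 0.46 in Dicer_WT. The part of these cell types in the values of miR-182 was not tested.

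**Figure D4:**
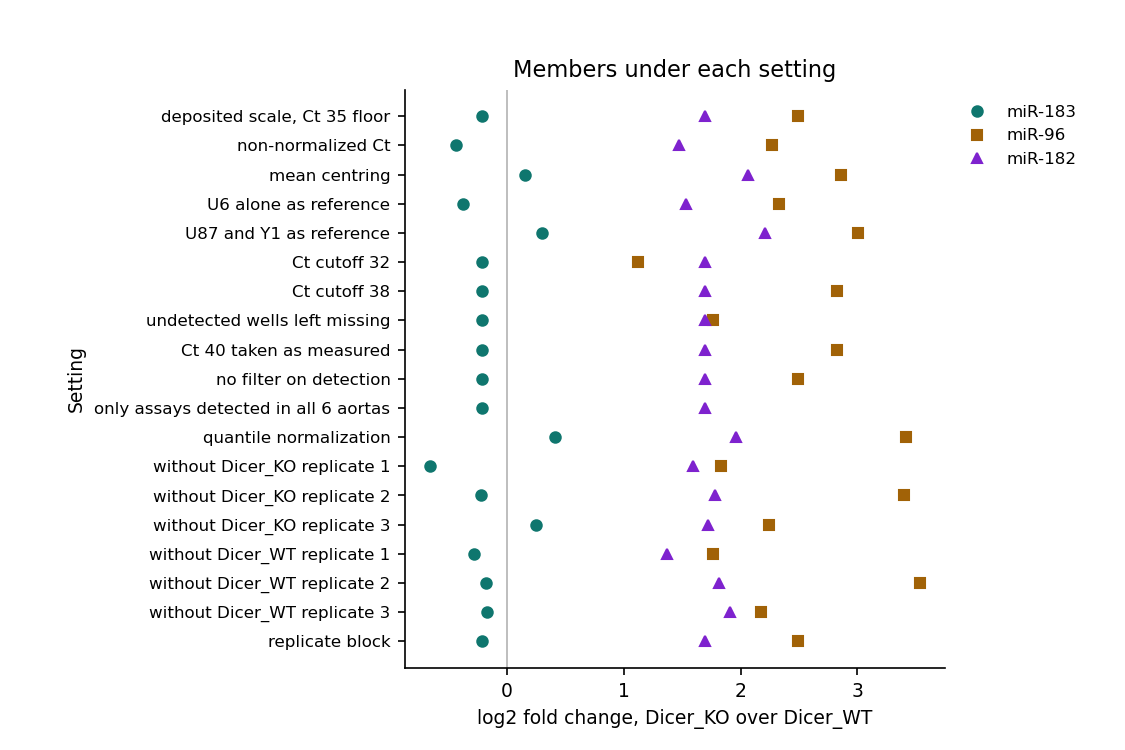
The x axis gives the log2 fold change (Dicer_KO over Dicer_WT) of each member under each setting named on the y axis, with the deposited scale and a floor at Ct 35 on top; miR-96 has no point where only assays detected in all 6 aortas were kept. miR-182 stays between 1.37 and 2.21, miR-96 between 1.13 and 3.54, and miR-183 lies on both sides of 0.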

How the data were processed

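MicroRNAs of 6 aortas were measured by TaqMan PCR after reverse transcription and preamplification, per the labels' protocols; the sources used here name neither software nor array version. The authors deposited Ct values per assay (40 where there was no product; 5 decimal commas were read as points) and relative quantities, a linear ratio per assay. From the values, log2 of the deposited ratio equals the mean Ct of U6, snoRNA135 and snoRNA202 (and snoRNA429 on card 2) minus the assay's Ct, relative to the Dicer_WT mean (largest difference 5.22e-06). The authors' deposited fold changes equal the ratio of arithmetic means for 514 of 517 assays, within a relative tolerance of 1e-06.

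Wells at or above Ct 35 were set to 35. Fitted were the 377 of 517 assays with a detected well in 2 or more aortas of either genotype, with limma 3.58.1 in R 4.3.3 (two-sided, Benjamini-Hochberg, threshold 0.05), tested on simulated data. Differences between members were compared by exact permutation. The replicates are called biological in the labels, so an aorta was taken as 1 mouse; no depth applies, and their number limits the precision. Members, lists and clusters were chosen with earlier results of these data known. Named were the members, their passenger strand, the 5 assays most like each member and list members. Named after their values were seen were miR-322, miR-542-5p, miR-23a, miR-27a, miR-143, miR-145, miR-1, miR-133a, miR-467d and miR-467b. Same-numbered aortas did not deviate together (r of -0.08, -0.10 and 0.04), so the numbers were not taken as pairs. With so few aortas this cannot exclude a pairing. Other settings were other references, quantile normalization, other Ct cutoffs and filters, a replicate block and leaving out each aorta.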

Additional observations from a re-analysis of the deposited data

How the results depend on the processing

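The log2 fold changes of the members moved by less than their spread between replicates under all settings tried, except that of miR-182 with U87 and Y1 as reference (2.21). Without 1 aorta they ranged from -0.66 to 0.25 for miR-183, from 1.76 to 3.54 for miR-96 and from 1.37 to 1.91 for miR-182. The median of all assays was 0.16 with U87 and Y1, against -0.42 on the authors' scale. The change of miR-182 minus miR-183 ranged from 1.47 to 2.26 and that of miR-96 minus miR-183 from 2.00 to 3.72 without 1 aorta; that of miR-182 minus miR-96 ranged from -1.72 to -0.24 and reversed to 0.57 at a Ct cutoff of 32, by construction of the floor. With the replicate block the changes were the same, 1.91, 2.71 and -0.79, and 3 pairs allow no p below 0.25, so this says nothing of stability. With undetected wells left missing, the Ct differences were -4.67 (miR-182 minus miR-183), 2.33 (miR-96 minus miR-183) and -7.30 (miR-182 minus miR-96), each with an adjusted p of 0.0625. The pairs with miR-96 then rest on 5 aortas, which allow no p below 0.0625, whereas miR-182 minus miR-183 kept 6 aortas and its p of 0.03125 (exact sign-flip permutation), raised by the adjustment over the 3 pairs. Without 1 aorta the limit of 5 aortas holds for all 3 pairs, with ranges of -4.96 to -4.30, 2.33 to 3.42 and -7.84 to -7.25. The count of all assays called lower was 7, against 24 at a Ct cutoff of 32, 13 with Ct 40 taken as measured, 20 over assays detected in all 6 aortas and 5 to 55 without 1 aorta. The count called higher was 0 (9 at an unadjusted p under 0.05), against 1 with mean centring, 2 with U87 and Y1 and 2 at a Ct cutoff of 32. It was 2 over assays detected in all 6 aortas, 3 after quantile normalization and 0 to 9 without 1 aorta. The highest counts were those without Dicer_KO replicate 1. Among the members, miR-182 was called higher in 4 of 18 other settings, miR-183 in 0 of 18 and miR-96 in 0 of 17. As the members were picked for this contrast, nothing is read from their calls.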
